A study of Mus musculus with 2 samples.

Results

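Peaks of N6-methyladenosine (m6A), the most common methylated base inside mRNA, were examined in 10 genes of bone morphogenetic protein (BMP) signalling that act in the decidualizing uterus. They are the ligand genes Bmp2, Bmp4 and Bmp7, the receptor genes Bmpr1a, Acvr1 and Bmpr2, the signal transducers Smad1, Smad5 and Smad4, and Fst, the gene of the extracellular antagonist follistatin. The members were fixed by name, and a peak was counted for a member when its summit lay in the member's RefSeq gene span on GRCm38, the assembly of mm10. By this rule 23 of 26584 deposited peaks (0.0865%) belonged to 9 of the 10 members.

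The peaks come from methylated RNA immunoprecipitation sequencing, in which pieces of RNA caught by an antibody to m6A (the IP) are set against unselected RNA (the input). Polyadenylated RNA came from wild-type females aged 6 to 8 weeks, mated with fertile males and killed on gestational day 4, counting the day of the vaginal plug as day 1. The labels give 1 IP and 1 input sample and call the cell type mixed, so no value has a replicate and no test between samples was possible. The sources used here do not say whether RNA of several females was pooled. The run name inside every peak name, D8NegIP-Posinput, does not match the labelled day, so it is unsettled which day and which control these peaks stand for. They are called day 4 peaks below, as labelled.

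BMP ligands bind pairs of type I and type II serine/threonine kinase receptors on the cell surface. The activated type I receptor phosphorylates SMAD1 and SMAD5, which join SMAD4 and regulate genes in the nucleus, while follistatin and other secreted proteins hold ligands away from the receptors. In the mouse uterus this pathway is needed for the change of stromal fibroblasts into decidual cells, and loss of Bmp2 in the uterus blocks that change. The day labelled here is the day of uterine receptivity, just before the embryo attaches.

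Fold enrichment below is the peak caller's value at a summit, (IP fragments + 1) / (background fragments + 1). Ranges in parentheses after it are exact 95% Poisson intervals of the IP count with the background taken as known. They cover counting error of the IP alone, and not that of the background. Copies made by PCR are not separate molecules, and the intervals make no allowance for them. The member peaks rested on 5 to 113 IP fragments at the summit, with a median of 28, against a median of 19 over the 22974 peaks in protein-coding genes. Only 2 of the 23 had fewer than 10 fragments. Of the tissue markers, all 6 of uterine stroma, 5 of 6 of epithelium (not Krt18), all 4 of smooth muscle and all 4 of endothelium had a peak. The same held for 2 of 4 immune markers (not Ptprc or Cd68), 1 of 3 of ovary and oviduct and 1 of 3 of red blood cells, and none of the 3 embryo markers Pou5f1, Nanog and Cdx2 had one. Over all protein-coding genes the share with a peak was 44.8%. With so few markers, the counts do not settle which tissues the RNA came from.

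The ligand genes Bmp2 and Bmp4, all 3 receptor genes, all 3 Smad genes and Fst had at least 1 peak, and only Bmp7 had none. The members with a peak thus made up 90.0% (Wilson interval 59.6 to 98.2), while 44.8% of 21896 protein-coding genes had at least 1 peak. Among the 13789 protein-coding genes with spans in the members' range, 6728 to 120391 bp, the share was 50.7%. Transcript abundance was not measured in the data used here, and its part in this difference in shares was not tested. The median background was 2.69 at the member peaks and 1.58 over the peaks in protein-coding genes, but genes without a peak have no such value. Bmp7, which encodes another BMP ligand, had no summit in its span of 72310 bp on chromosome 2 or within 10 kb of it. How deeply Bmp7 was sequenced is unknown here, so a lack of peaks does not show that its mRNA lacked the mark.

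By the deposited fold enrichment, the strongest sites were those of the receptor-activated Smads. Smad1 and Smad5 transmit the signal from the receptors to the nucleus. The highest fold enrichment per gene was 28.8 (23.8 to 34.6) in Smad1 and 21.1 (16.7 to 26.3) in Smad5, followed by 13.5 (9.77 to 18.2) in Bmp4 and 13.5 (9.10 to 19.3) in Bmp2. The receptors came next with 12.2 (9.44 to 15.5) in Bmpr1a, 9.58 (6.43 to 13.8) in Acvr1 and 9.46 (7.56 to 11.7) in Bmpr2. Smad4, the partner shared with the TGF-beta pathway, had 7.17 (4.95 to 10.1), and Fst was lowest at 4.68 (3.17 to 6.70). The median of the 9 was 12.2, against 9.36 over the 9819 protein-coding genes with a peak, whose quartiles were 6.65 and 13.1. Of the 9, 4 stood above that upper quartile, and Smad1 ranked 87 and Smad5 440 among the 9819 genes. The lead of Smad1 and Smad5 depended on the 1 added to both counts. As a plain ratio of IP fragments to background, Bmp2 led with 62.9, at a site of 11 fragments over 0.175, ahead of 38.2 in Smad1 and 28.6 in Smad5.

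**Figure D1:**
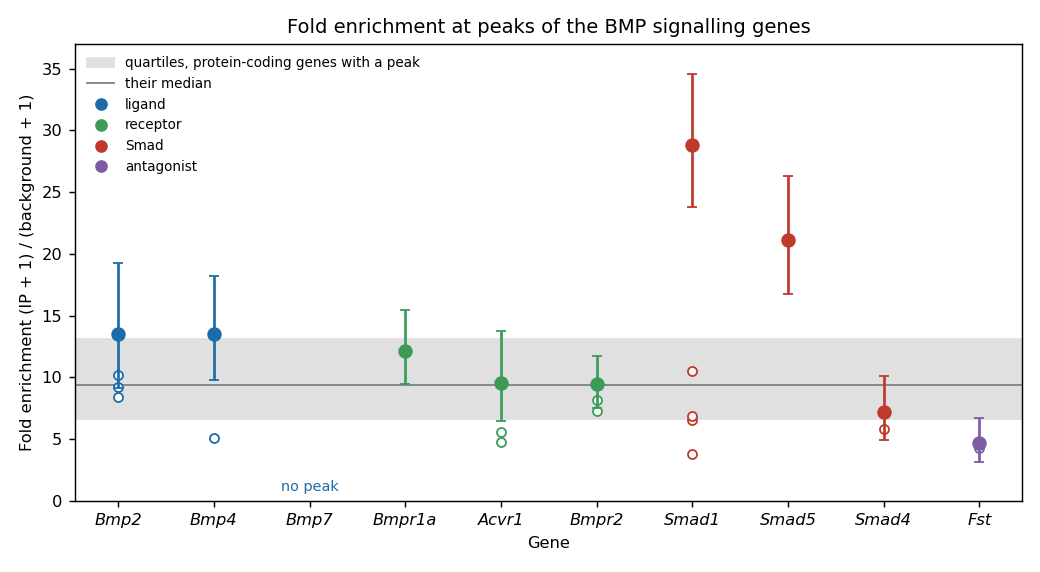
Fold enrichment (linear axis) of every peak in the 10 genes, coloured by role. Filled points are the highest peak of a gene with its 95% Poisson interval, open points its other peaks, and the grey band spans the quartiles (6.65 to 13.1) of the highest fold enrichment over 9819 protein-coding genes with a peak; Smad1 and Smad5 lie above the band with their whole intervals, and Bmp7 has no peak.

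In the order by fold enrichment the intervals of all 8 pairs of neighbours overlapped. No step from one gene to the next thus stood beyond counting error of the IP. Some wider steps did, with the error of the background count left out. The interval of Smad1 lay above that of every member but Smad5, and the interval of Fst lay below those of Smad1, Smad5, Bmp4, Bmp2, Bmpr1a and Bmpr2. These are differences between sites of 1 library pair and carry no spread between animals. The strongest sites of Fst and Bmp2 both had 28 IP fragments. Their step thus lay wholly in the backgrounds, 5.19 and 1.15, whose error the intervals leave out.

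Smad1, Acvr1 and Bmpr2 had a peak at the annotated start, and sequence before those starts is shown first because peaks covered it. The stretches of Smad1 and Acvr1 lie under the peak at the start, and that of Bmpr2 under a separate peak that ends before the start. RefSeq promoter windows on GRCm38.p6, 250 bases before to 50 after each start, were at hand for 6 members (Bmp4, Bmpr1a, Bmpr2, Acvr1, Smad1 and Smad5). The lines below give the bases before the start, within these windows, that a peak covered. They run 5′ to 3′ on the strand of the gene, with each CG in capitals. For Bmpr2 they are the edge of the peak that lies inside the window, without its summit. The few bases next to the start that the other Bmpr2 peak covered are left out. The Smad1 stretch is chr8:79399429-79399531 (minus strand), that of Acvr1 is chr2:58566829-58566922 (minus strand) and that of Bmpr2 is chr1:59764029-59764115 (plus strand).
Smad1: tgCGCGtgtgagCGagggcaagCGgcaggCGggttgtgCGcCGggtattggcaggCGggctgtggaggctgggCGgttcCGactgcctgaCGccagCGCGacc
Acvr1: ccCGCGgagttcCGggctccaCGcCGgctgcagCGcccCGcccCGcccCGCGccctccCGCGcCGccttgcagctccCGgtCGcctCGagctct
Bmpr2: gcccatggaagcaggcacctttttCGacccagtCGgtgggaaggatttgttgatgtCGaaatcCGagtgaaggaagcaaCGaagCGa

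All 3 stretches were richer in CG than most promoter windows, and none held GGAC. The Smad1 stretch, bases 103 to 1 before the start, had 13 CG pairs and a GC content of 72.8%. The Acvr1 stretch, bases 94 to 1, had 16 and 81.9%, and the Bmpr2 stretch, bases 250 to 164, had 6 and 52.9%. The share of all 32851 promoter windows with fewer CG pairs over the same bases was 89.8%, 97.0% and 82.8% in that order. The letters GGAC, the core of many m6A sites, were searched on both strands and occurred in neither. On either strand 52.3%, 49.0% and 46.1% of all windows held them over the same bases. These are descriptions of the letters in the windows, which lie before the annotated start and need not be in the mRNA.

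At these starts the fold enrichments ran from 4.77 to 8.13. In Smad1 the summit of a 228 bp peak (chr8:79399304-79399531) fell on the first base of the span, with 11 IP fragments over a background of 0.746 and a fold enrichment of 6.87 (3.72 to 11.9). In Acvr1 the summit of a 200 bp peak (chr2:58566723-58566922) lay 29 bp inside the start, with 5 fragments over 0.258 and 4.77 (2.09 to 10.1), and it also lay in the span of Upp2. In Bmpr2 a summit 145 bp inside the start (chr1:59764271-59764548) had 29 fragments over 2.69 and 8.13 (5.53 to 11.6). Thus the Bmpr2 site had the most fragments of these, close to the median of 28 over the member peaks, and the Acvr1 site the fewest of all 23.

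Bmpr2 alone had a further peak before its start, and it covers the stretch printed above. This peak, chr1:59763466-59764115, was 650 bp wide, and its summit lay 265 bp before the start, outside every gene span. It had 23 fragments over 2.31, a fold enrichment of 7.26 (4.71 to 10.7), and is not among the 23. The shortest peaks of the list were 200 bp wide. The peaks at the start of Smad1 and Acvr1 were 228 and 200 bp wide, with summits inside the span. The summit of the further Bmpr2 peak lay outside. Why bases before the start came to lie under these peaks was not tested.

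With these, 3 of the 6 members of known strand had a summit within 500 bp of the start, against 15.6% of the 7833 protein-coding genes of known strand with a peak. The interval of the members' share, 18.8 to 81.2%, is wide, and the distance of 500 bp was chosen after the positions were seen. Antibodies against m6A also bind m6Am, a modified base next to the cap of many mRNAs, and near a start these marks cannot be told apart here. The peaks carry no strand, so transcripts running the other way were not separated either.

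**Figure D2:**
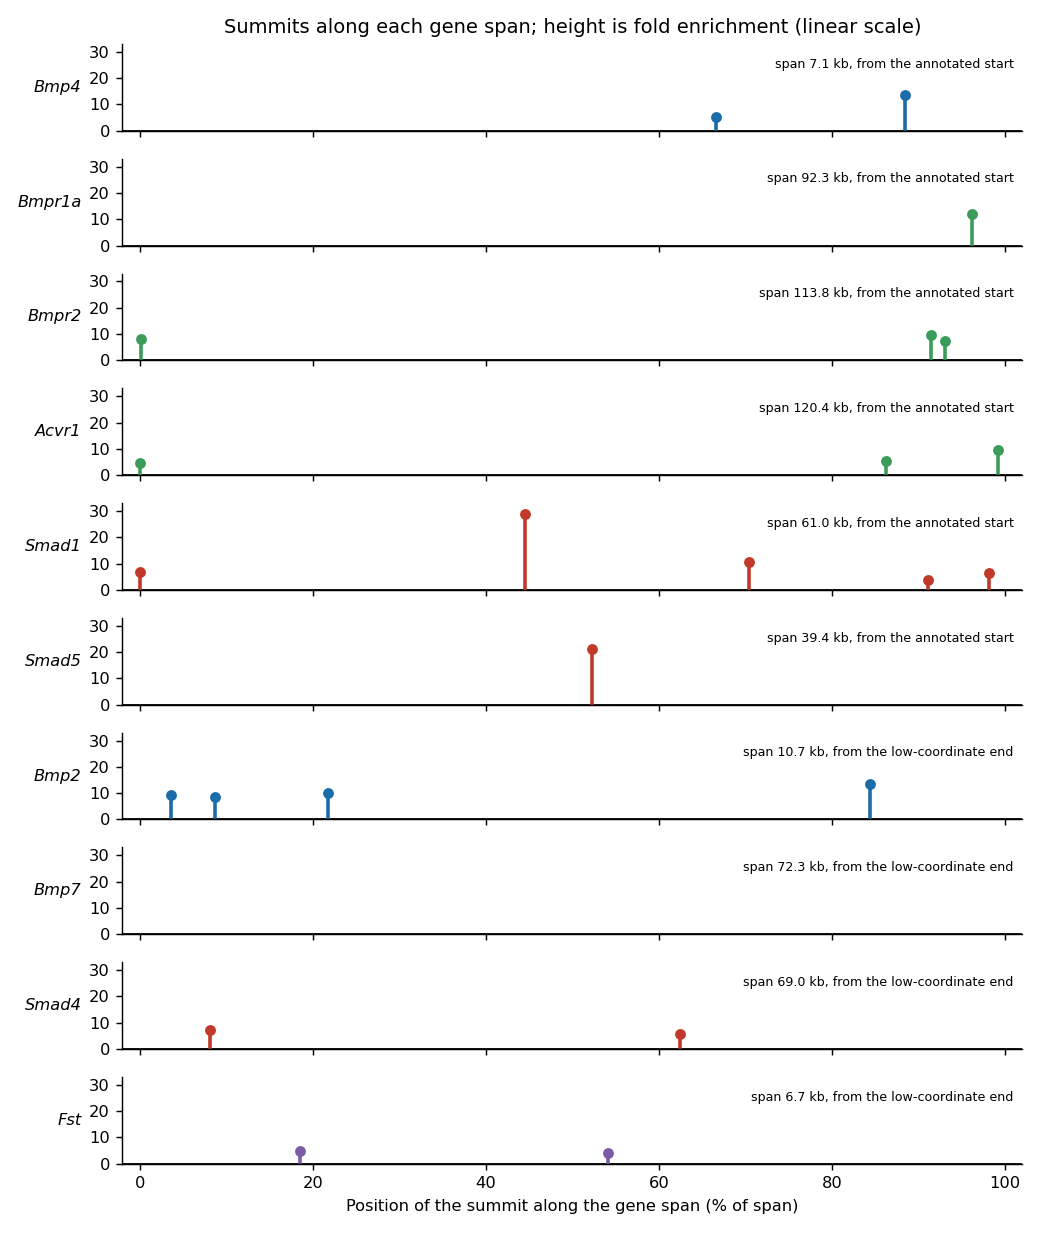
Position of each summit along its gene span (percent of the span) for the 10 genes, with the fold enrichment as the height of the line on a linear axis from 0. Genes of known strand (upper 6) run from the annotated start and the other 4 from the low-coordinate end; the tallest lines of Smad1 and Smad5 stand at 44.6% and 52.3%, those of Bmp4, Bmpr1a, Bmpr2 and Acvr1 at 88.4 to 99.2%.

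Among the ligands, Bmp2, whose product drives stromal decidualization, had 4 peaks on chromosome 2, more than either other ligand. The strongest (chr2:133560926-133561797) was 872 bp wide, with 28 fragments over a background of 1.15, and its summit lay 1672 bp from the high-coordinate end of the span. The other 3 were 255 to 320 bp wide, lay 393, 936 and 2336 bp from the low-coordinate end, and had fold enrichments of 9.23 (4.86 to 16.3), 8.39 (4.29 to 15.2) and 10.2 (5.53 to 17.6). They rested on 9 to 11 fragments over backgrounds of 0.175 to 0.192, close to the lowest background of the whole list, 0.175. At such backgrounds the added 1 is most of the divisor. Without it the ratios of these 3 were 52.0, 46.8 and 62.9, and that of the wide peak was 24.3, so the order of the sites within Bmp2 turned with this choice, and these 3 came to lie above every site of the other members.

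Bmp4, which encodes a closely related ligand, had a broad strong site and a weak one. The strong one (chr14:46383821-46384883) was 1063 bp wide, with 41 fragments over 2.12, and its summit lay 828 bp from the transcription end of a 7145 bp gene. The weak one, 2388 bp from that end, had 11 fragments over 1.35 and 5.12 (2.77 to 8.82), an interval below that of the strong one. Bmp2 and Bmp4 thus had the same highest fold enrichment, 13.5, each at a wide peak at most 1672 bp from an end of the span.

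The receptors differed in the number of peaks more than in enrichment. Bmpr1a, the gene of the type I receptor ALK3, had 1 peak in a span of 92276 bp (chr14:34414235-34414763), 529 bp wide, with 65 fragments over 4.42, and its summit lay 3508 bp from the transcription end. Acvr1, the gene of the type I receptor ALK2, had 3. Its strongest (chr2:58446977-58447778) had 27 fragments over 1.92 and lay 922 bp from the end, and another 16598 bp from the end had 12 fragments and 5.54 (3.07 to 9.36). By fold enrichment the strongest site was thus near the far end in both type I receptor genes, 96.2% (Bmpr1a) and 99.2% (Acvr1) of the way along the span. Without the added 1 the strongest Acvr1 site was the one at the start, with a ratio of 19.4 from 5 fragments, against 14.0 at the far end.

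Bmpr2, the gene of the type II receptor, had the widest member peak and the highest background. That peak (chr1:59867170-59868592) was 1423 bp wide, with 83 fragments over 7.88, and its summit lay 9733 bp from the transcription end. A neighbour 7847 bp from the end had 33 fragments over 3.65 and 7.31 (5.10 to 10.2). With the site at the start, the 3 Bmpr2 peaks ran from 7.31 to 9.46 and their intervals overlapped. No difference between the start and the far part of the gene thus stood beyond counting error of the IP. Without the added 1 the ratios were 10.8 at the start and 10.5 at the widest peak.

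**Figure D3:**
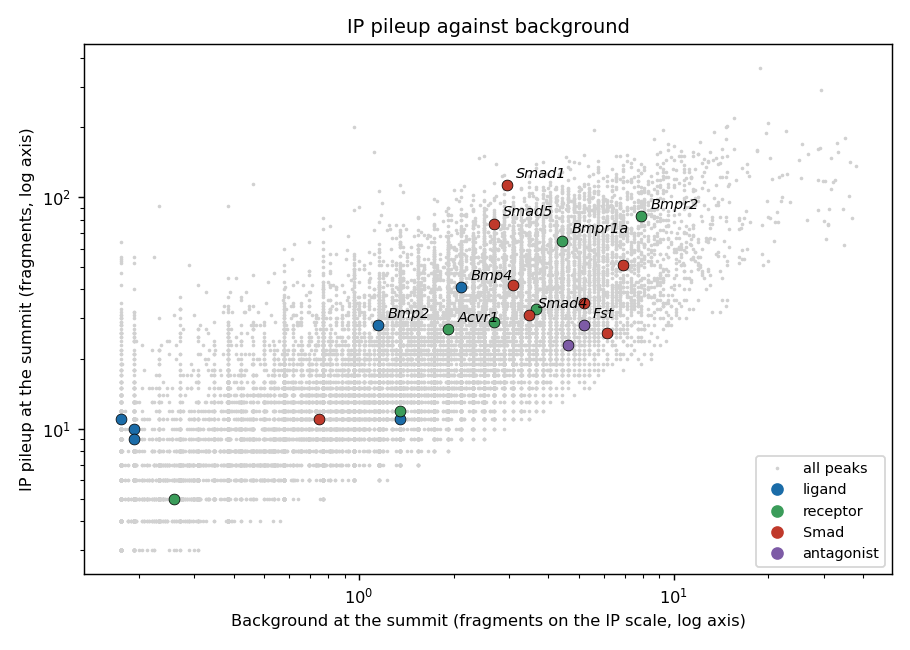
IP fragments at the summit against background fragments, both on log axes, for the 23 peaks in the 10 genes (coloured by role, the strongest of each gene named) and all 26584 peaks (grey). Smad1 and Smad5 stand high over middling backgrounds of 2.96 and 2.69, Bmpr2 has the highest background, 7.88, and 3 Bmp2 peaks lie at the left edge.

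Smad1, a transcription factor phosphorylated by BMP receptors, had 5 peaks, the most of the members, and they were unequal. The strongest (chr8:79371659-79372530) was 872 bp wide, with 113 fragments over a background of 2.96, and lay 27208 bp from the start and 33825 bp from the transcription end. The next, 18059 bp from the end, had 42 fragments over 3.08 and 10.6 (7.67 to 14.2), so the strongest was 2.73 times higher and their intervals did not meet. The 2 sites nearest the end, at 1166 and 5467 bp, had the highest backgrounds of the gene, 6.92 and 6.15, and fold enrichments of 6.57 (4.92 to 8.59) and 3.78 (2.52 to 5.47), the latter the lowest of the 23. The median over the 5 peaks was 6.87, below the 7.26 of all peaks in protein-coding genes, so the high rank of Smad1 rested on a single site.

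Smad5, the other receptor-activated Smad examined, had 1 peak. It (chr13:56723354-56723974) was 621 bp wide, with 77 fragments over 2.69, and lay 20594 bp from the start and 18774 bp from the transcription end of a 39369 bp gene. The leading sites of Smad1 and Smad5 therefore shared a place in the middle of the span, 44.6% and 52.3% of the way from the start. The summits of highest fold enrichment in the other 4 members of known strand lay within 10 kb of the transcription end, 4 of 6 in all, against 66.3% of the 7833 protein-coding genes, so the members' share was close to that of all genes. Over those 7833 genes the strongest summit lay at a median of 75.8% of the span. Spans include introns, and exons were not used here, so whether these sites are coding is not given.

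Smad4 and Fst ranked lowest of the members with a peak by their highest fold enrichment. Smad4 had 2 peaks, of 31 fragments over 3.46 at 5591 bp from the low-coordinate end and of 35 over 5.19 at 25957 bp from the high-coordinate end, with fold enrichments of 7.17 and 5.82 (4.10 to 8.03). Its higher value lay under the median of 9.36 over genes with a peak, and 30.2% of those genes had lower ones. Among single peaks it was ordinary, close to the median of 7.26 over all peaks in protein-coding genes. Fst, whose product binds activin and BMPs, had 28 fragments over 5.19 at chr13:114453351-114453889 and 23 over 4.61 at chr13:114455814-114456048, with 4.68 and 4.28 (2.78 to 6.33). Only 5.85% of genes with a peak were lower than Fst. The strongest sites of Smad4 and Fst thus had about as many IP fragments as that of Bmp2, 28, but over backgrounds of 3.46 and 5.19 in place of 1.15.

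Beyond the 10 members, 56 further genes of the pathway were listed by role, and 37 of them had a peak (66.1%, 53.0 to 77.1), against the 44.8% of all protein-coding genes and the 50.7% of those with spans in the members' range. By role the shares were 27.3% (9.75 to 56.6) for ligands, 87.5% (52.9 to 97.8) for receptors and coreceptors, 90.9% (62.3 to 98.4) for intracellular regulators, 58.8% (36.0 to 78.4) for antagonists and modulators and 77.8% (45.3 to 93.7) for target genes. The intervals of ligands, antagonists and target genes include the 50.7%. The list was written with earlier results of these data known, so no share is evidence of a departure from all genes in any role. The 50.7% is for the members' span range, to which the spans of the 56 genes were not matched. Of 11 other ligands, 3 had one, Gdf7 with 28.3 (23.3 to 34.1), Bmp3 with 13.0 (8.73 to 18.7) and Gdf5 with 8.13 (4.16 to 14.7), and the Gdf7 summit lay also in the span of Ldah. None was found in Bmp5, Bmp6, Bmp8a, Bmp8b, Bmp10, Bmp15, Gdf2 or Gdf6. Of 8 other receptors and coreceptors, 7 had one, led by Rgma, a BMP coreceptor, at 16.2 (12.6 to 20.6), the type II receptor gene Acvr2a at 14.0 (10.6 to 18.1) and the endothelial coreceptor gene Eng at 11.7 (8.45 to 15.9), and only Hjv had none. The leads of Gdf7 and Rgma depended on the added 1. Without it the ratio at the site of highest fold enrichment was 39.0 in Gdf5, from 9 fragments, against 37.8 in Gdf7. Over all Gdf5 peaks the highest ratio was 41.6. Rgma, with 21.1, no longer led. Peaks were thus found in fewer of the listed ligands than receptors, and this difference was not tested.

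Inside the cell, 10 of 11 mediators and regulators had a peak, with a median highest fold enrichment of 13.5. The corepressor genes Ski and Skil, whose products bind Smads, led with 26.3 (21.0 to 32.6) over 9 peaks and 23.4 (18.4 to 29.4) over 6, ahead of Zfp423, a Smad cofactor, at 17.1 (11.4 to 24.8). This order turned without the added 1, where Ski, with a ratio of 37.9, no longer led and Zfp423 had 45.1. Zfp423 did not lead either. The highest such ratio in this role was 58.9, from 12 fragments over 0.204, in a gene outside the 3 named. Smurf2, a ubiquitin ligase gene, had none. Smad9, the third receptor-activated Smad of the pathway and named here after its value was seen, had a single site of 5 fragments over 0.175 and 5.11 (2.23 to 10.8). Its interval lay below those of Smad1 and Smad5. Without the added 1 its ratio was 28.6, the same as that of Smad5 and still below the 38.2 of Smad1. Its place below Smad5 thus rested on the added 1.

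Outside the cell, 10 of 17 antagonists and modulators had a peak, with a median of 8.96. Nog, the gene of the BMP antagonist noggin, had 18.3 (15.1 to 21.9) from 112 fragments, the pseudoreceptor gene Bambi 15.0 (10.8 to 20.3) and Twsg1 10.1 (7.33 to 13.5). As a ratio without the added 1, Nog had 21.6 and no longer led, and Bambi had 23.1. Bambi did not lead either. The highest such ratio in this role was 36.4, from 7 fragments over 0.192, in a gene outside the 3 named. The interval of Nog lay above that of Fst, so the antagonists ranged from strong to weak sites. Chrd, Chrdl1, Chrdl2, Grem1, Cer1, Sost and Sostdc1 had no peak. Of 9 listed target genes, 7 had one, with fold enrichments of 7.55 to 11.0, with Id2 at 11.0 (8.09 to 14.7), Id1 at 10.2 (6.34 to 15.6) and Msx1 at 9.78 (6.97 to 13.4), the last at a summit shared with its antisense gene Msx1os. Without the added 1 the ratios at these 7 sites ran from 12.8 in Msx1 to 41.6 in Msx2, whose site had 8 fragments over 0.192, and Id2 with 14.3 no longer led. Id3 and Gata4 had none.

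**Figure D4:**
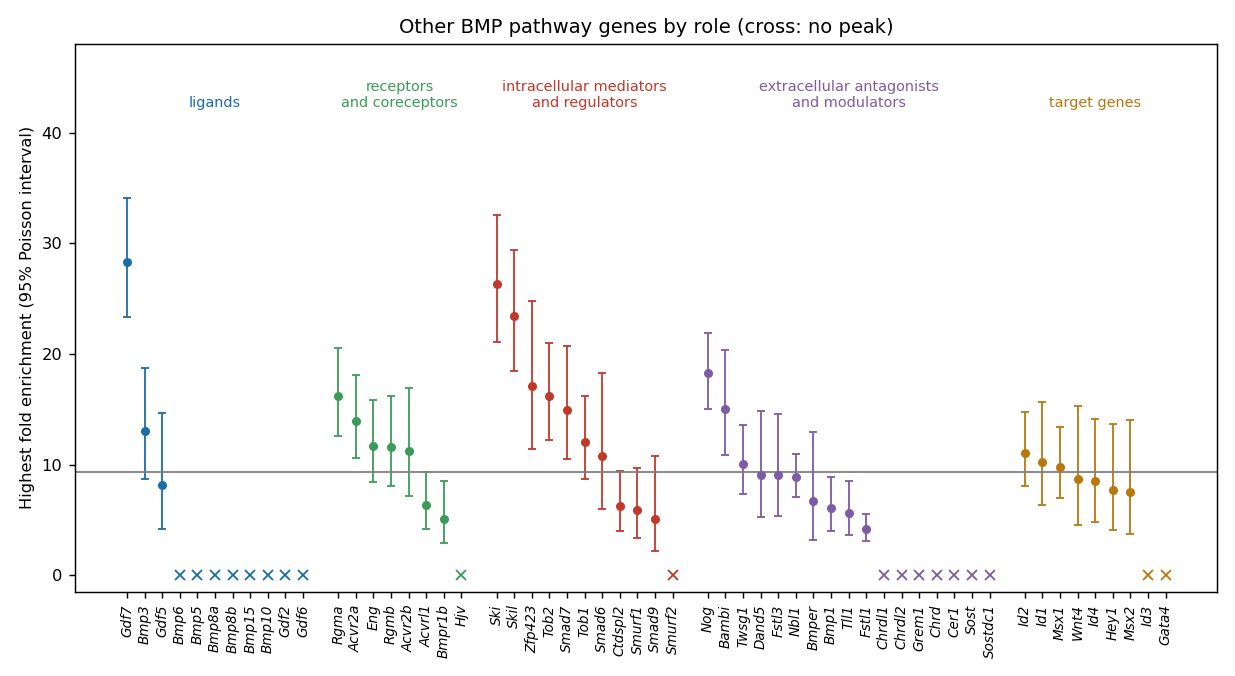
Highest fold enrichment (linear axis) with its 95% Poisson interval for 56 other BMP pathway genes, ordered within 5 roles; a cross marks a gene with no peak and stands for no value, and the grey line is the median of 9.36 over protein-coding genes with a peak. Intracellular regulators have a peak in 10 of 11 cases and ligands in 3 of 11.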

How the data were processed

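The submitters' processing notes name HISAT2 2.2.1, the build mm10 and MACS3 3.0.0a7; their options and the use of the input are not stated there. The deposited list gives each peak a fold enrichment (a ratio), a p-value and a q-value, both deposited as −log10, and a deposited score that is 10 times −log10 q to within 1. The lowest −log10 q was 1.31. Fold and p together gave the whole number of IP fragments and the background at a summit, within 0.05 of a step for 99.97% of peaks, all 23 member peaks among them; the solving was tested on simulated data. Summits were placed in gene spans of RefSeq GRCm38.p6, also where spans overlap. Strand came from the promoter table, whose overlapping windows of opposite strand were reverse complements in 1683 of 1683 cases. Bmp2, Bmp7, Smad4 and Fst were not in it. The start and the transcription end of a gene are the ends of its span. Coordinates count from 1. All members were named; of the other pathway genes, those without a peak and the 3 highest per role (1 listed gene is not reported here). Members, lists and distances were chosen with earlier results of these data known. Alternatives kept only peaks with at least 10 IP fragments, with −log10 q from 5 up or with fold enrichment from 4 up, or used summits in exactly 1 gene, any or 50% overlap, spans lengthened by 5 kb, the median over peaks, no added 1 (also the highest such ratio over a gene's peaks, added after the data were seen), and the peak with the highest −log10 q. The work was done in Python 3.11.15 with scipy 1.17.1, pandas 2.3.3, numpy 2.4.6 and matplotlib 3.10.9.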

Additional observations from a re-analysis of the deposited data

How the results depend on the processing

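Of 141 recomputed values, 119 stayed within 1.5 times the reported count, inside the interval of the reported value or, for a distance, equal to it, and 22 moved. Among the 119 were the highest fold enrichments of the 9 members, which filtering peaks left unchanged because each strongest peak passed every filter. Those unchanged values say little about how stable the enrichments are. Bmp7 was the only member without a peak under each of the 7 other ways to filter or assign peaks, with 21 to 24 peaks in the members. The median over a gene's peaks, in place of the highest, gave 5.54 for Acvr1, 9.30 for Bmp4, 6.87 for Smad1 and 8.13 for the median of the members, by construction lower. Without the added 1, the ratio at the site of highest fold enrichment was 14.0 in Acvr1, 24.3 in Bmp2, 19.4 in Bmp4, 38.2 in Smad1 and 28.6 in Smad5. The highest such ratio over all peaks of a gene, chosen after seeing the data, was 62.9 in Bmp2, 38.2 in Smad1, 28.6 in Smad5 and 19.4 in both Acvr1 and Bmp4, with a median of 19.4 over the members. It put Bmp2 first and moved the strongest site of Acvr1 and Bmpr2 to the start, 120361 and 113657 bp from the transcription end. The divisor without the added 1 shows why, being smallest at the lowest backgrounds. Of all protein-coding genes, a peak was found in 41.2% with −log10 q of at least 5, 43.9% with fold enrichment of at least 4, 39.3% with 10 IP fragments, 40.8% with exactly 1 gene and 52.3% with spans lengthened by 5 kb. No paired analysis was possible because there is 1 sample of each kind. Depth limits the sites of 5 to 12 fragments, whose intervals are wide.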
